A study of Phalaenopsis equestris with 4 samples.

Results

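A group of 52 contigs, assembled transcript sequences of the orchid Phalaenopsis equestris, was abundant in stem, leaf and flower and scarce in root. A contig was taken when its expression value was at least 50 FPKM (fragments scaled to transcript length and library size) in each of stem, leaf and flower, was above 0 in root, and when root + 1 was at most one eighth of the lowest of the other 3 values + 1. The 44 contigs that the authors had matched to heat shock proteins or R genes (plant disease resistance genes) were left out. The contigs were thus chosen by their measured values in all 4 libraries, and the low root level described below is a description of what was chosen, not a finding. The 52 contigs were 0.0234% of the 221878 in all and 4.73% of the 1099 that reached 50 FPKM in stem, leaf and flower. They fell into 51 Trinity genes, which are groups of contigs that the assembler treats as isoforms of each other, and into 50 assembly components, which hold 1 or more related Trinity genes.

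Each of the 4 tissues, taken from plants aged 3 years, gave 1 library made from total RNA. The labels name no treatment, genotype or flower part, and do not say how many plants went into a library. Without replicates no difference has a replicate check and no p-value is given, and each statement compares 1 library with another. In whole organs, fewer cells that express a transcript and less of it per cell cannot be told apart.

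Phalaenopsis orchids grow on trees, and their roots hang in air or cling to bark, covered by a spongy layer of dead cells, the velamen, that takes up water. These roots can carry chloroplasts, so a root of this plant is not simply a non-green organ. Stem, leaf and flower all develop from the shoot and share a surface covered by a waxy cuticle. The leaf holds the bulk of the photosynthetic tissue, which in this genus fixes carbon dioxide at night. The contigs carry no gene names outside the heat shock and R gene tables. None of the 52 can thus be given a function here, and whether any of them belongs to photosynthesis or cuticle formation is not stated.

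The libraries differed in scale. Summed FPKM came to 7179830 in leaf against 684575 in stem, 695751 in flower and 895717 in root. In leaf 75.9% of the sum belonged to 1 component, c157498, that is not in the group. Read totals per library were not used here. Ratios of low values were taken over Trinity genes made of 1 contig with a root value between 0.05 and 1 FPKM and a value above 0 in the other library. The most common ratio was 16.7 for leaf to root over 6391 contigs, 0.633 for stem to root over 31650 and 0.551 for flower to root over 16876, which may be the ratio at equal numbers of reads. By that ratio the lowest leaf value in the group, 55.7 FPKM, would rest on as many reads as 3.34 FPKM in root, fewer than at the lowest stem or flower value of the group. Root values below that level, 16 of them under 1 FPKM, would rest on fewer still. Median-of-ratios factors, taken over the 24591 contigs above 1 FPKM in all 4 libraries, placed leaf 0.87 log2 units above root, while stem and flower lay 0.04 above it. Comparisons of stem with flower were thus the least touched by scaling, and those with leaf are given below with other scalings.

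In root the 52 contigs ranged from 0.043 to 123 FPKM with a median of 3.95 FPKM. The range was 51.7 to 1867 FPKM in stem, with a median of 137 FPKM. It was 55.7 to 5717 FPKM in leaf, with a median of 197 FPKM, and 50.5 to 3622 FPKM in flower, with a median of 190 FPKM. The contigs made up 1.66% of summed FPKM in stem, 3.19% in flower and 0.0427% in root. In leaf they made up 0.397%, or 1.65% without c157498. The median root value over all contigs was 1.12 FPKM, and values above 0 in root were a condition of the rule. Of the 52, 16 were under 1 FPKM in root, 30 under 5 FPKM and 43 under 10 FPKM.

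Ranks within a library do not depend on scaling, but they come from the same values that the rule used. The contrast in them thus follows from the choice and is no separate support. The median rank of the group among all contigs was 370 in stem, 410 in flower and 946 in leaf, and 39488 in root. In stem 44 of the 52 were among the 1000 highest contigs, as were 38 in flower, 27 in leaf and 1 in root. The exception in root was c139409_g2_i1, at rank 543 there, 15 in stem, 34 in leaf and 9 in flower.

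**Figure D1:**
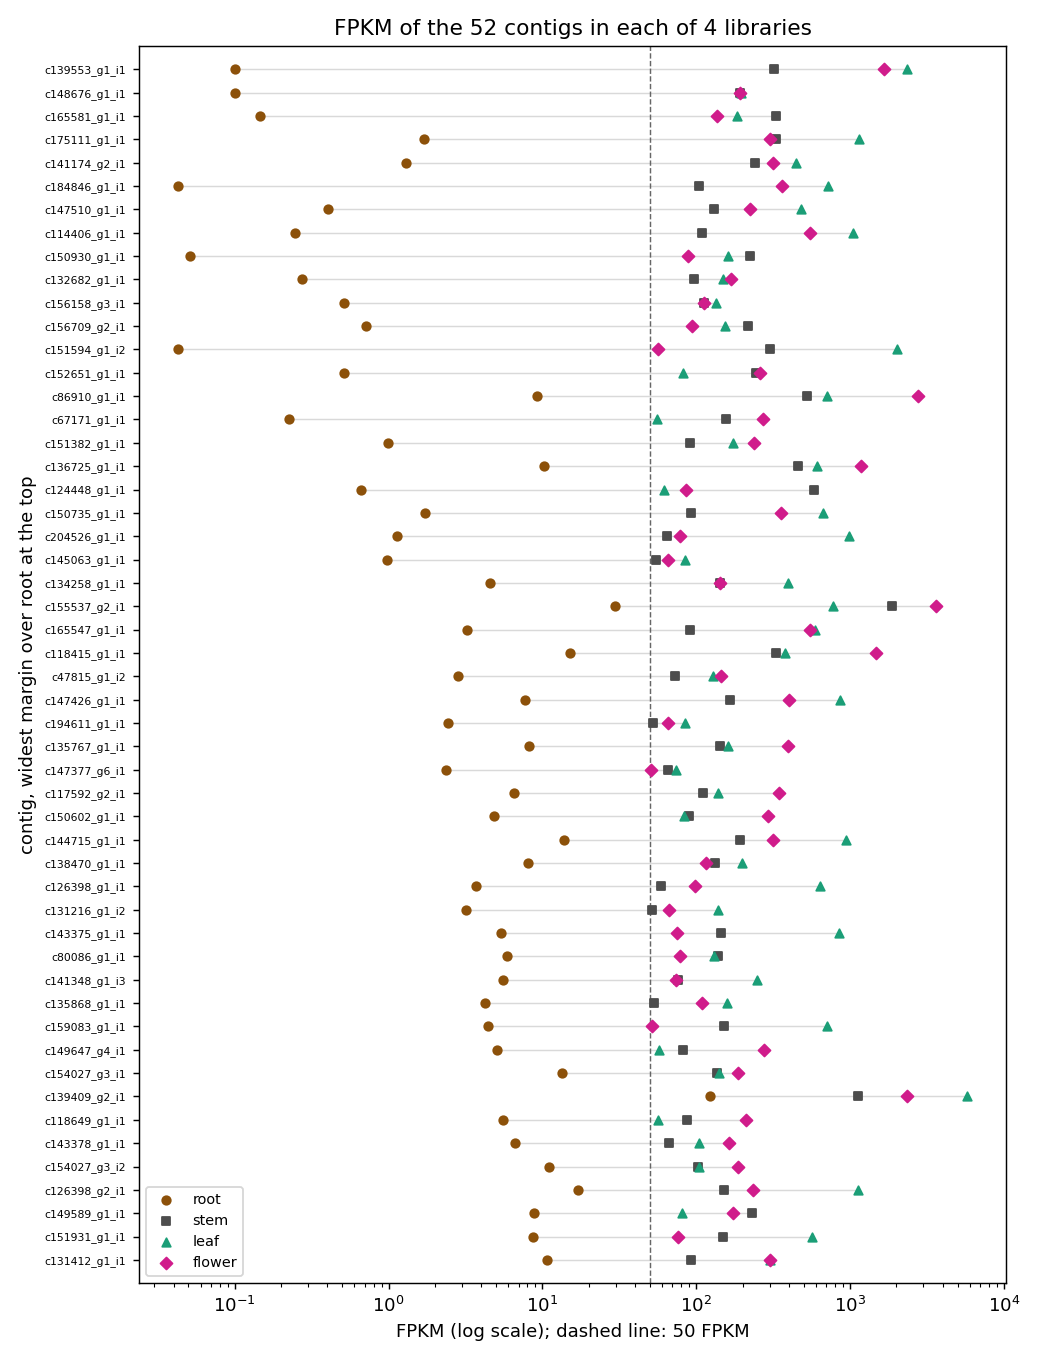
FPKM (log scale) of each of the 52 contigs in root, stem, leaf and flower, 1 library each, ordered by the margin between root and the lowest of the other 3; the dashed line is the 50 FPKM limit. Root values run from 0.043 to 123 FPKM and all lie left of the other 3 values of the same contig, while the order of stem, leaf and flower changes from contig to contig.

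The margin over root, the difference between log2(FPKM + 1) of the lowest of stem, leaf and flower and that of root, had a median of 4.31, or 19.9-fold. It was at least 16-fold in 28 contigs, 32-fold in 20, 64-fold in 11 and 128-fold in 2. Of the 1099 contigs at 50 FPKM or more in stem, leaf and flower, 4.73% met the rule, and the median margin over those 1099 was 0.24. Root was below stem, leaf and flower in 58.5% of the 1099. With median-of-ratios factors the 52 contigs had a median margin of 4.01 against 0.03 for the 1099, and with the FPKM sums of the libraries set equal 2.89 against -1.54. Root remained the lowest library for 52 of 52 contigs in both of these scalings. The 8-fold margin of the rule almost fixed this in advance, so it is no check of the low root level. The margin stayed at 8-fold or more for 44 of them with median-of-ratios factors and for 23 with sums set equal.

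**Figure D2:**
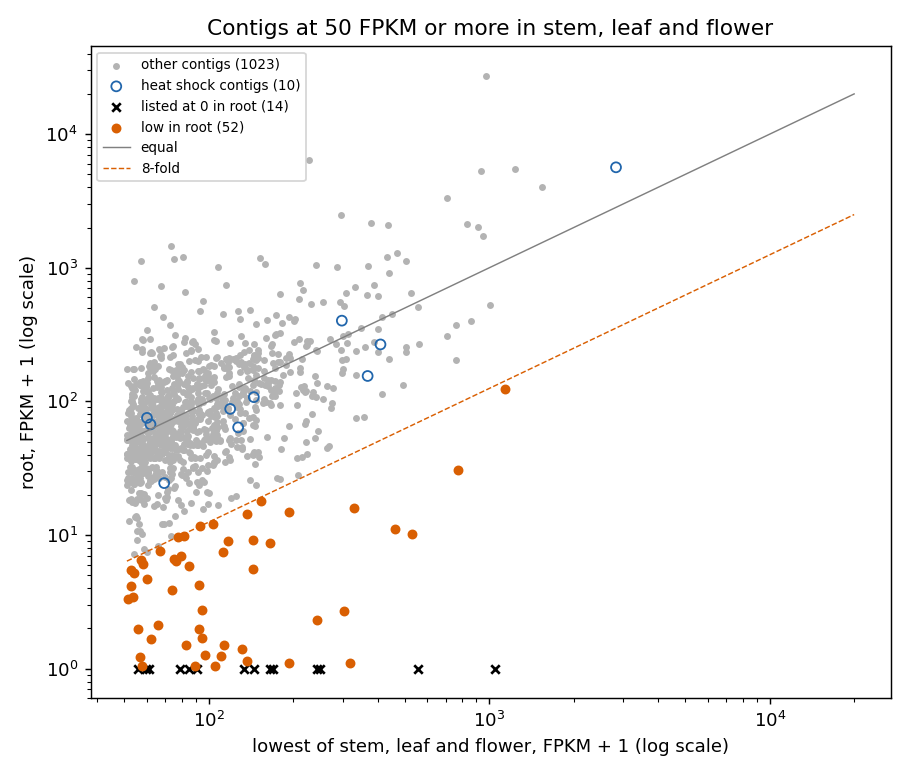
Root level against the lowest of stem, leaf and flower (both FPKM + 1, log scales) for the 1099 contigs at 50 FPKM or more in those 3 libraries. Orange points are the 52 contigs below the 8-fold line, crosses the 14 listed at 0 in root, and open circles the 10 heat shock contigs, none of which is below the line.

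The widest margins belonged to contigs at or under 1.71 FPKM in root. Contig c139553_g1_i1 was at 319 FPKM in stem, 2355 in leaf and 1660 in flower but 0.101 in root, a margin of 8.18 log2 units. Contig c148676_g1_i1 had the same root value of 0.101 FPKM with 194 in stem, 196 in leaf and 192 in flower, a margin of 7.46. Contig c165581_g1_i1 was at 331 FPKM in stem, 184 in leaf and 136 in flower but 0.145 in root. These 3 contigs reached wide margins with different profiles in the shoot as deposited. The first was lowest in stem, the second even, the third highest in stem. The highest library changed with scaling in the first and the second but not in the third.

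Contig c175111_g1_i1 stood at 330 FPKM in stem, 1150 in leaf and 302 in flower but 1.71 in root. For c141174_g2_i1 the values were 241 FPKM in stem, 445 in leaf and 314 in flower but 1.30 in root. Both were above the root library's median and still more than 100-fold lower there than in stem. Contig c184846_g1_i1, at 104 FPKM in stem, 717 in leaf and 361 in flower but 0.043 in root, ranked 171078 in root, where 171440 contigs were above 0. Root levels of 0.405 and 0.246 FPKM were found for c147510_g1_i1 and c114406_g1_i1. The former had 130 FPKM in stem, 479 in leaf and 223 in flower. The latter had 110 in stem, 1040 in leaf and 550 in flower. All 3 shared the order leaf, flower, stem as deposited. Values this small in root can change by a large factor with few reads, so the size of these margins is less certain than their direction.

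The most abundant contigs by mean over stem, leaf and flower came from both ends of the root range. The highest, c139409_g2_i1, was at 1134 FPKM in stem, 5717 in leaf and 2347 in flower but 123 in root. Second was c155537_g2_i1, at 1867 FPKM in stem, 770 in leaf and 3622 in flower but 29.4 in root, and it ranked 6 in flower. It was followed by c139553_g1_i1, described above, and by c86910_g1_i1, at 528 FPKM in stem, 714 in leaf and 2766 in flower but 9.21 in root. The last of the leading 5 was c151594_g1_i2, at 303 FPKM in stem, 2019 in leaf and 56.6 in flower but 0.043 in root. Root levels of these 5 abundant contigs thus spanned 0.043 to 123 FPKM, the whole range of the group.

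Beyond the shared low root level, the contigs had no common profile in the shoot. As deposited, 28 were highest in leaf, 18 in flower and 6 in stem, while 31 were lowest of the 3 in stem, 13 in flower and 8 in leaf. Stem was below leaf in 40 of the 52 and below flower in 37, against 91.0% and 73.0% of the 1099. How often each library was the lowest over the 1099 was not counted, so these counts are not called particular to the group. Over the 1099 contigs 73.2% were highest in leaf, 22.8% in flower and the remaining 44 contigs in stem. The split depended on the leaf scale: with median-of-ratios factors 18 of the 52 were highest in leaf, 25 in flower and 9 in stem, and with sums set equal 1, 34 and 17. Shares of the 1099 also moved, to 35.1% in leaf, 51.6% in flower and 13.3% in stem with median-of-ratios factors. With sums set equal they were 2.46%, 71.1% and 26.5%. The highest library was the same in all 3 scalings for 25 contigs, made up of 18 in flower, 6 in stem and 1 in leaf. Both other scalings lower leaf against stem and flower, so in practice only a lead of leaf could be lost. The single leaf contig was c204526_g1_i1. The most frequent order was leaf, flower, stem, in 19 contigs, followed by flower, leaf, stem in 12 and leaf, stem, flower in 9.

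As deposited, the spread among the 3 shoot libraries was wide, and it depends in part on the scale of leaf. The ratio of the highest to the lowest of them had a median of 3.33 in the group and 2.41 over the 1099 contigs. It was at most 2 in 12 of the 52, or 23.1%, against 33.2% of the 1099. It was at least 4 in 21 of the 52, against 236 of the 1099, or 21.5%. Across the 52 contigs Pearson's r of log2(FPKM + 1) was 0.60 between stem and flower and 0.42 for either of them with leaf. Over the 1099 contigs the same r was 0.67 between stem and flower, 0.66 between stem and leaf and 0.51 between leaf and flower. Contigs are not independent replicates, all points share the same libraries, and both sets were cut at 50 FPKM, so these values are descriptions.

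Stem and flower, the pair least touched by scaling, were compared first. Flower was the higher in 37 of the 52 contigs and stem in 15, and flower was the higher in 73.0% of the 1099. The median difference was 0.71 log2 units on FPKM + 1 in favour of flower, against 0.41 over the 1099. A difference of at least 4-fold in favour of flower was found in 5 contigs, and the background share among the 1099 was 2.64%. The 5 were c139553_g1_i1, c114406_g1_i1, c86910_g1_i1, c165547_g1_i1 and c118415_g1_i1. In favour of stem there were 2, c151594_g1_i2 and c124448_g1_i1, with a background of 1.36%. For the same 52 contigs these counts of 5 and 2 did not change in the other scalings, which hardly alter stem against flower. They rest on 1 library of each organ and are too few to call particular to the group.

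Leaf was above stem by at least 4-fold in 14 contigs, against a background share of 15.5%, and stem above leaf in 1, against 0.273%. For leaf over flower the count was 7, with a background of 12.5%, and for flower over leaf 3, with 0.819%. With median-of-ratios factors the same counts were 5 for leaf over stem, 5 for stem over leaf, 5 for leaf over flower and 10 for flower over leaf, with background shares of 6.55% for leaf over stem, 4.64% for leaf over flower and 4.09% for flower over leaf, and 11 of the 1099 for stem over leaf. When sums were set equal they were 0, 30, 0 and 41, against background shares of 0.546%, 66.4%, 1.18% and 76.1%. Which side was more frequent in the comparisons with leaf therefore changed with scaling.

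**Figure D3:**
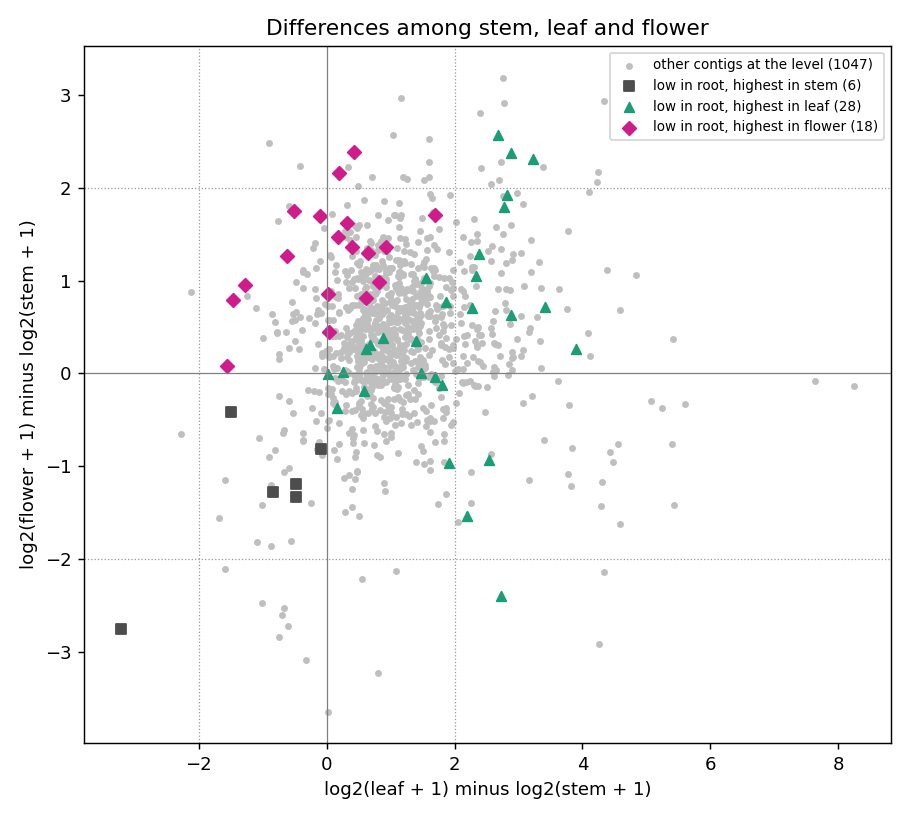
Difference of leaf from stem (horizontal) and of flower from stem (vertical), both as log2(FPKM + 1) as deposited, for the 52 contigs low in root, marked by their highest library (28 leaf, 18 flower, 6 stem), and for the 1047 other contigs at 50 FPKM or more in the 3 libraries; dotted lines mark 4-fold. Stem is the lowest of the 3 in 31 of the 52, which lie at the upper right, and the rest are spread over the other directions. The stem-led point farthest to the lower left is c124448_g1_i1.

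Among the contigs highest in leaf, the lead of leaf over the next library on FPKM + 1 was widest in c204526_g1_i1, at 12.4-fold. Its values were 64.8 FPKM in stem, 978 in leaf and 77.9 in flower but 1.13 in root. In c151594_g1_i2 the lead over stem was 6.65-fold. A lead of 6.49-fold over flower was found in c126398_g1_i1, with 58.9 FPKM in stem, 638 in leaf and 97.5 in flower but 3.68 in root. Contig c143375_g1_i1, at 144 FPKM in stem, 844 in leaf and 75.3 in flower but 5.42 in root, led by 5.82-fold over stem. The fifth was c126398_g2_i1, with 152 FPKM in stem, 1121 in leaf and 235 in flower but 17.0 in root, a 4.76-fold lead. Of these 5, the lead of leaf was kept with sums set equal in c204526_g1_i1 alone.

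Flower-led contigs had smaller leads than leaf-led ones on the deposited scale. With sums set equal leaf led in 1 contig alone, so this order depends on the scale of leaf. The widest lead of flower was that of c118415_g1_i1, at 329 FPKM in stem, 377 in leaf and 1477 in flower but 15.0 in root, 3.91-fold over leaf. Next came c86910_g1_i1 at 3.87-fold. Contig c149647_g4_i1 was at 82.1 FPKM in stem, 57.2 in leaf and 278 in flower but 5.06 in root, 3.35-fold above stem. Contig c150602_g1_i1, with 89.6 FPKM in stem, 83.7 in leaf and 293 in flower but 4.85 in root, led by 3.25-fold. For c117592_g2_i1 the values were 111 FPKM in stem, 139 in leaf and 345 in flower but 6.50 in root, a 2.48-fold lead. The lead of flower held in all 3 scalings for these 5 and for the remaining 13 flower-led contigs. Both other scalings lower leaf against flower and hardly alter stem against flower, so such a lead could hardly be lost.

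Stem led in 6 contigs, and 1 of them stood apart from the rest. Contig c124448_g1_i1 was at 579 FPKM in stem, 61.4 in leaf and 85.3 in flower but 0.659 in root, a 6.72-fold lead over flower, and it ranked 40 in stem. The next 4 had leads of 1.80-fold or less. Of these, c165581_g1_i1 has been described. Contig c156709_g2_i1 was at 216 FPKM in stem, 154 in leaf and 93.8 in flower but 0.709 in root, and c150930_g1_i1 at 224 FPKM in stem, 161 in leaf and 88.4 in flower but 0.051 in root. Both fell in the order stem, leaf, flower. Contig c149589_g1_i1 was at 231 FPKM in stem, 80.8 in leaf and 173 in flower but 8.85 in root. As deposited, c124448_g1_i1 was the only contig of the 52 with stem at least 4-fold above both leaf and flower.

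Leaf was, as deposited, the lowest of the 3 shoot libraries in 8 contigs, which is the side that both other scalings move further in the same direction. Among them c67171_g1_i1 was at 156 FPKM in stem, 55.7 in leaf and 271 in flower but 0.224 in root. Contig c152651_g1_i1 stood at 245 FPKM in stem, 82.1 in leaf and 260 in flower but 0.514 in root. For c118649_g1_i1 the values were 87.1 FPKM in stem, 56.3 in leaf and 211 in flower but 5.51 in root. In c67171_g1_i1 flower was 4.86 times leaf, and in c152651_g1_i1 stem and flower were nearly equal at about 3 times leaf.

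Stem was, as deposited, the lowest in 31 contigs, in several of them by a wide step. Contig c165547_g1_i1 was at 91.0 FPKM in stem, 587 in leaf and 545 in flower but 3.26 in root, so that flower was 5.99 times stem. Contig c150735_g1_i1 was at 93.1 FPKM in stem, 664 in leaf and 354 in flower but 1.74 in root. In c136725_g1_i1, with 460 FPKM in stem, 608 in leaf and 1182 in flower but 10.2 in root, the step was smaller. The comparison of flower with stem in these 3 contigs is the part that scaling of leaf does not touch.

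Flower was, as deposited, the lowest in 13 contigs. Contig c159083_g1_i1 was at 152 FPKM in stem, 703 in leaf and 51.9 in flower but 4.46 in root, and c151931_g1_i1 at 150 FPKM in stem, 565 in leaf and 76.4 in flower but 8.64 in root. In c159083_g1_i1 stem was 2.93 times flower, and in c151594_g1_i2 it was 5.35 times flower, so that both flower and root were low beside leaf there.

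A few contigs were almost level across the shoot. In c148676_g1_i1 the highest of stem, leaf and flower was 1.02 times the lowest. The ratio was 1.20 in c156158_g3_i1, at 112 FPKM in stem, 135 in leaf and 113 in flower but 0.514 in root. It was 1.37 in c154027_g3_i1, with 136 FPKM in stem, 140 in leaf and 187 in flower but 13.3 in root. In c147377_g6_i1 it was 1.45, with 65.7 FPKM in stem, 73.4 in leaf and 50.5 in flower but 2.35 in root. Contig c145063_g1_i1, at 54.6 FPKM in stem, 84.3 in leaf and 65.7 in flower but 0.977 in root, had a ratio of 1.54. Evenness is relative to the deposited scale of leaf, which sets all 5 ratios in part. Of these 5, c148676_g1_i1 combined the most even shoot levels with a margin over root of 7.46 log2 units.

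The rule was applied to each contig on its own, and what other contigs of the same components did was not used by it. The 50 components held 88 contigs, so that 36 were outside the group, in 18 components. Of the 36, 9 belonged to the same Trinity gene as a contig of the group and 27 to another Trinity gene of the component. Root was below stem, leaf and flower in 21 of the 36, and their median margin was 1.36. The 8-fold margin was reached by 7 of them. Of these 7, 2 were listed at 0 in root and were at 50 FPKM or more elsewhere. Over the 1099 contigs root was below the other libraries in 58.5%, the median margin was 0.24 and 6.01% reached 8-fold. Only 7 of the 36 were at 50 FPKM or more in stem, leaf and flower, so the 1099 are not a matched set. A component can join isoforms, alleles and members of a gene family, and reads shared between near-identical contigs can be assigned to either, so the values within a component are not independent.

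In 4 components another contig was at 50 FPKM or more in root. The largest contrast was in c155537, where c155537_g1_i1 was at 6661 FPKM in stem, 1537 in leaf and 12196 in flower with 4039 in root, beside 29.4 in root for c155537_g2_i1. In c154027, c154027_g2_i1 was nearly level at 241 FPKM in stem, 264 in leaf and 194 in flower with 210 in root, beside 13.3 and 11.1 in root for the pair of group contigs. Component c149647 held c149647_g1_i1, at 157 FPKM in stem, 280 in leaf and 302 in flower with 104 in root, beside 5.06 in root for c149647_g4_i1. In these 3 components another Trinity gene of the same component was thus abundant in root.

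The fourth case lay within a single Trinity gene. Contig c131216_g1_i2 was at 51.7 FPKM in stem, 139 in leaf and 66.1 in flower but 3.19 in root. Its presumed isoform c131216_g1_i1 was at 367 FPKM in stem, 219 in leaf and 407 in flower with 66.2 in root. Summed over both, root was at 69.4 FPKM and the lowest other library at 357, a margin of 5.09-fold on FPKM + 1, which does not meet the rule.

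Of the 51 Trinity genes, 8 held more than 1 contig and 5 of these 8 still met the rule when their contigs were summed. Beside c131216_g1, the sums of c150602_g1 and c141348_g1 fell just short. In c150602_g1 the other contig, c150602_g1_i2, was at 67.7 FPKM in stem, 102 in leaf and 249 in flower but 15.1 in root, and the summed margin was 7.57-fold. In c141348_g1 the other contigs were c141348_g1_i1 at 10.7 FPKM and c141348_g1_i2 at 4.76 FPKM in root, and the summed margin was 7.03-fold. The group contig there, c141348_g1_i3, was at 76.2 FPKM in stem, 250 in leaf and 74.0 in flower but 5.58 in root. By contrast, c141174_g2 kept a margin above 8-fold in each of its contigs, with 0.369 FPKM in root for c141174_g2_i3 and 28.9 in stem, 37.7 in leaf and 13.5 in flower.

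Components with 2 contigs of the group numbered 2. In c126398 the contigs of 2 Trinity genes, g1 and g2, shared the same profile at different levels: leaf was 10.8 times stem in c126398_g1_i1 and 7.38 times stem in c126398_g2_i1, and flower lay between in both. In c154027 the pair c154027_g3_i1 and c154027_g3_i2 were contigs of 1 Trinity gene. The latter was at 103 FPKM in stem, 104 in leaf and 187 in flower but 11.1 in root. Their flower values differed by less than 1 FPKM, and their sum met the rule with a margin of 9.44-fold.

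**Figure D4:**
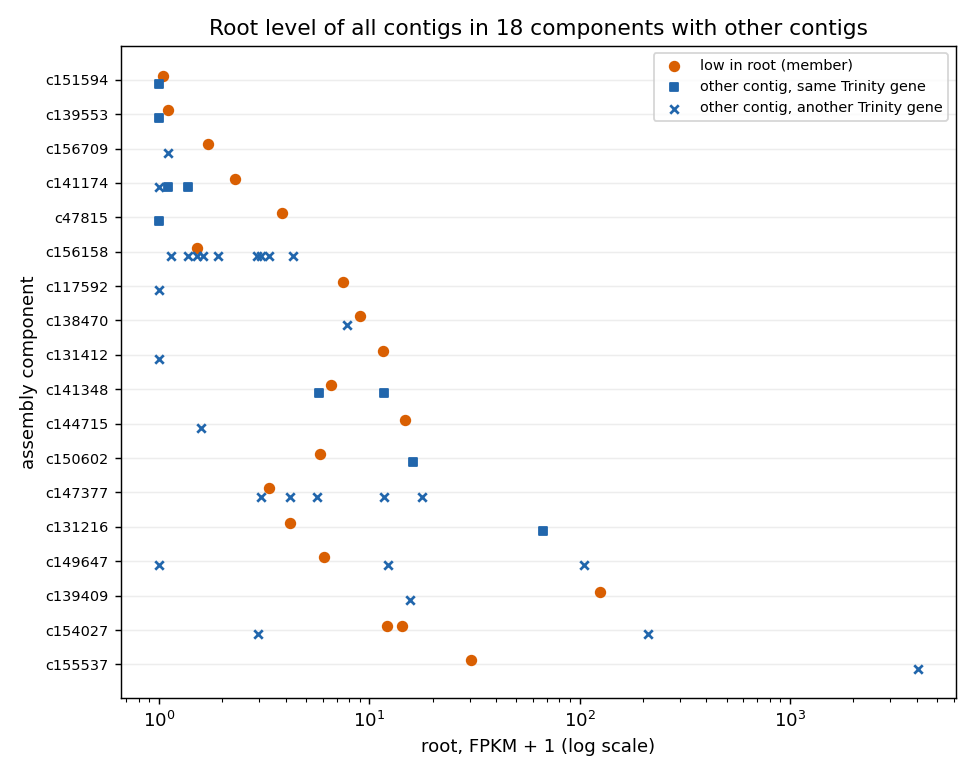
Root level (FPKM + 1, log scale) of every contig in the 18 components that hold both contigs of the group (orange circles) and others, in the same Trinity gene (blue squares) or in another (blue crosses). In c155537, c154027 and c149647 a contig of another Trinity gene lies far to the right, at 4039, 210 and 104 FPKM, and in c131216 a contig of the same Trinity gene does, at 66.2 FPKM.

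At the edges of the rule the values ran on without a gap. Just inside the 8-fold limit were c131412_g1_i1, with 92.2 FPKM in stem, 302 in leaf and 303 in flower but 10.6 in root, and, with margins of 3.01 and 3.06 log2 units, c151931_g1_i1 and c149589_g1_i1. Just outside were c118868_g1_i1, c150590_g1_i1 and c153134_g1_i1, of which the last 2 had margins of 2.98 and 2.90. The first of them was at 59.0 FPKM in stem, 83.8 in leaf and 181 in flower but 6.52 in root. At the 50 FPKM limit the lowest values inside were 50.5 FPKM in c147377_g6_i1, 51.7 in c131216_g1_i2 and 51.9 in c159083_g1_i1, and outside they were 49.7 FPKM in both c137160_g2_i1 and c145792_g2_i4 and 48.7 in c156801_g1_i1. The last 3 were at 0.384, 1.17 and 0.246 FPKM in root, as low as many of the group.

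The condition that root be above 0 left out 14 contigs that met the rest of the rule. The highest was c109042_g1_i1, listed at 0 in root and at 1051 FPKM in stem, 6778 in leaf and 4471 in flower. Contigs c143410_g1_i2 and c143410_g1_i1, of 1 Trinity gene, were at 556 and 249 FPKM in stem, 1300 and 1017 in leaf and 870 and 772 in flower. Of the 14, 10 were highest in leaf and 4 in flower as deposited. A pair of them belonged to Trinity genes of the group: c139553_g1_i2, at 164 FPKM in stem, 1732 in leaf and 770 in flower, is grouped with c139553_g1_i1, and c151594_g1_i1 with c151594_g1_i2. No fold is given for a contig listed at 0. With these 14 the group would number 66.

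Of the contigs left out by name, 10 of the 27 heat shock contigs and none of the 17 R gene contigs reached 50 FPKM in stem, leaf and flower. None of those 10 met the margin. Heat shock proteins are chaperones that help other proteins keep or regain their fold. The closest of the 10 was the contig of HSP20_PEQU_09331, a small heat shock protein model, with 68.3 FPKM in stem, 151 in leaf and 246 in flower but 23.5 in root, a margin of 2.83-fold on FPKM + 1.

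Root was compared with the other tissues by turning the same rule on each. Low in stem with 50 FPKM or more in root, leaf and flower were 3 contigs of 851 at that level, and low in flower 32 of 931. None of 747 was low in leaf, with 1 more listed at 0 there. The corresponding 52 of 1099 for root made it the most frequent low tissue as deposited and with median-of-ratios factors, where the counts were 37 for root, 20 for flower and 0 for stem and leaf. With sums set equal leaf was the most frequent, at 55, with 17 for root, 3 for flower and 0 for stem. Without the leaf library, with the rule on the other 3, the counts were 65 for root, 70 for flower and 4 for stem, so that flower then exceeded root. That root is the tissue most often low was therefore not a stable feature of these libraries.

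**Figure D5:**
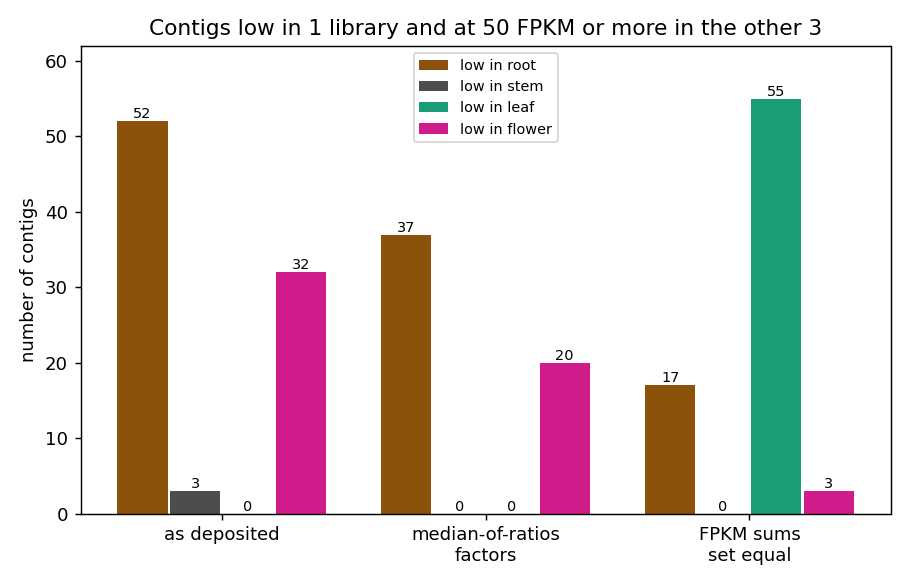
Number of contigs that are low in 1 library and at 50 FPKM or more in the other 3 (vertical axis, from 0), for root, stem, leaf and flower, under 3 scalings. As deposited and with median-of-ratios factors root has the most, 52 and 37; with sums set equal leaf has the most, 55, and root has 17.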

How the data were processed

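Paired-end reads from an Illumina HiSeq instrument were assembled de novo with Trinity, with contigs of at least 200 nucleotides, per the series' design text. FPKM values per contig for root, stem, leaf and flower were deposited by the authors; no source used here gives the mapper, the estimator or the length used. The submitters' processing notes list edgeR and DESeq, with no version and no step. A pair of smaller deposited tables matches heat shock and R gene models to contigs, giving the authors' bit score and e-value of each match; they served here only to leave out contigs. Columns were assigned by the tissue in the header.

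FPKM values are not counts, and with 1 library per tissue no test was run. Margins and 4-fold differences are on FPKM + 1, with a pseudocount of 1. Trinity genes and components were read from contig names. Scripts used Python 3.11.15 with pandas 2.3.3 and numpy 2.4.6. The rule was checked on shuffled values with planted contigs, and the scaling on deposited values multiplied by known factors. Depth is unknown, so no counting intervals are given. No contig sequence was used here.

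The contigs and rules were chosen with earlier results of these data known. Contigs named are those with the widest margins, the highest means, the widest lead of each shoot organ and the most even shoot levels, those nearest the limits, those in components with 2 contigs of the group, and other contigs of the same Trinity gene with the highest root values. Further contigs of the components, those listed at 0 in root, and further contigs given as examples of leaf, stem or flower as the lowest shoot library or of 4-fold differences were named after their values were seen. Alternatives were other pseudocounts, levels, margins and scalings, sums per Trinity gene, root at 0 allowed, and no leaf library.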

Additional observations from a re-analysis of the deposited data

How the results depend on the processing

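Recomputed under 11 settings, 14 results gave 147 values, of which 103 stayed within 1.5 times a count or within the 95% exact (Clopper-Pearson) binomial interval of a share, or of the median for the margin. The intervals treat contigs as independent, although all came from the same 4 libraries and most of the sets overlap. They served only as a yardstick, and 103 is no measure of stability. The other 44 values follow. A pseudocount of 5 gave 34 contigs, 3.09% of the 1099, and mirrored counts of 0 low in stem and 19 low in flower. A level of 25 FPKM gave 111 contigs in 108 Trinity genes and 55 low in flower. A level of 100 FPKM gave 23 in 22, 0 low in stem, 12 low in flower, 4.35% highest in stem and 8.70% 4-fold apart between leaf and flower. A margin of 4-fold gave 99 in 95 Trinity genes, 9.01% of the level set, a median margin of 3.06, 6 low in stem and 71 low in flower. One of 16-fold gave 28 in 28, 2.55%, 5.74, 0 and 10. Counts rise with looser limits and fall with a larger pseudocount by construction of the rule, and so do shares of the same 1099. For the shares highest in stem or 4-fold apart the cause was not tested.

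Median-of-ratios factors gave 0 low in stem, 20 low in flower and 16.2% 4-fold apart between stem and leaf. Sums set equal, in which c157498 takes 75.9% of leaf, gave 17 contigs in 17 Trinity genes, 15 of them among the 52, and 6.54% of the level set. Mirrored counts were then 55 low in leaf, 3 low in flower and 0 low in stem, and 29.4% of contigs were highest in stem, 5.88% in leaf and 64.7% in flower. Shares 4-fold apart were 11.8% for stem and leaf, 35.3% for stem and flower and 52.9% for leaf and flower. Allowing 0 gave 1 low in leaf, and summing Trinity genes gave 1 low in stem. Without leaf, 70 were low in flower, an alternative chosen after seeing the data, and 70.8% of the contigs were highest in flower, since only stem remained beside it. Beyond these constructions the cause was not tested. Under all 5 of the stricter or rescaled settings (pseudocount 5, 100 FPKM, 16-fold and both scalings) 8 of the 52 were kept, among them c139553_g1_i1 and c86910_g1_i1, and 8 under none. No paired analysis was possible because each tissue has 1 library and no test was run.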

Other observations

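Contigs of 1 component with low root levels differed in the shoot in some cases, which were picked after the values were seen. In Trinity gene c151594_g1 both presumed isoforms were highest in leaf, and the order of stem and flower differed between them. Contig c151594_g1_i2 was at 303 FPKM in stem and 56.6 in flower, while c151594_g1_i1 was at 58.7 in stem and 230 in flower, and both were above 1000 FPKM in leaf, with 2019 and 1021. Root was at 0.043 FPKM for the former and listed at 0 for the latter.

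Component c156158 held c156158_g3_i1, almost level in the shoot, and 9 further contigs, all at or under 3.34 FPKM in root. Of these, c156158_g2_i3 was at 117 FPKM in stem and 0.481 in flower, c156158_g2_i6 at 76.1 in stem and 0.177 in flower, and c156158_g2_i8 at 75.7 in stem and 0.057 in flower, and all 3 were listed at 0 in leaf. In the same Trinity gene c156158_g2_i1 had the opposite pattern, at 6.94 FPKM in stem, 68.9 in leaf and 80.2 in flower. The remaining contigs of this Trinity gene lay between 18.7 and 29.6 FPKM in leaf. In leaf 63107 contigs were above 0, against 175844 in stem, and reads can be assigned to either of 2 near-identical contigs. A leaf value of 0 is thus a weak sign of absence.

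Component c144715 held a further contig of another Trinity gene, c144715_g2_i1, at 88.4 FPKM in stem, 668 in leaf and 28.4 in flower but 0.579 in root. It missed the 50 FPKM limit in flower alone, beside c144715_g1_i1 of the group at 193 FPKM in stem, 939 in leaf and 315 in flower but 13.8 in root.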
